A study of Mus musculus with 14 samples.

Results

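The proximal signalling machinery of the T cell receptor was followed through cultured mouse CD8 T cells labelled as lacking DOT1L, the methyltransferase of histone H3 lysine 79, or treated with an inhibitor of it. The group holds 40 genes, picked by symbol from the 55486 genes of the count table and sorted into 7 steps of the cascade, and all 40 passed the expression filter of every comparison. Polyadenylated RNA of 14 libraries was counted on day 8 of a culture that had begun with stimulation through anti-CD3 and anti-CD28 antibodies. The KO group (3 libraries) was heterozygous for CreERT2, a Cre recombinase that acts only when a tamoxifen derivative is present, homozygous for floxed Dot1l and heterozygous for OT-I. The WT group (3 libraries) carried CreERT2 and OT-I in the same way with wild-type Dot1l, and cells of both groups were given 10 nM 4-hydroxytamoxifen on day 0. The EPZ group (4 libraries) received the DOT1L inhibitor EPZ-5676 every 2 days and the DMSO group (4 libraries) its solvent at 0.1%, both in cells with wild-type Dot1l and OT-I but no Cre. No label gives the promoter that drives CreERT2. The dose of EPZ-5676 is 10 mM in one label and 10 uM in another, and it is not settled here which holds. OT-I is a rearranged transgenic T cell receptor that every group carried, and the labels name the strain as CreERT2;DOT1L-flox;OT-I throughout. Whether every cell used that receptor was not examined here. The libraries are biological replicates by their labels, and the library names give the EPZ and DMSO libraries the same 4 animals.

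When the receptor meets its antigen, the kinase LCK phosphorylates tyrosines in the CD3 chains and ZAP70 docks there and phosphorylates the membrane scaffold LAT and the adaptor SLP-76. Around LAT and SLP-76 a signalosome forms in which the phospholipase PLCG1 splits a membrane lipid into IP3, which opens calcium stores and activates NFAT, and diacylglycerol, which activates the Ras and NF-kB branches. Other adaptors lead to actin and integrins, and a set of brakes, among them diacylglycerol kinases, ubiquitin ligase adaptors and the kinase HPK1, limits the signal.

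The libraries held 5643724 to 20586093 counts. Dot1l itself averaged 203 ± 14.4 CPM in the KO-labelled and 136 ± 3.75 CPM in the WT-labelled libraries (SD, n = 3 each) and 101 ± 10.8 CPM in EPZ and 90.5 ± 6.81 CPM in DMSO (SD, n = 4 each), and it was higher in the KO-labelled libraries (log2 fold change 0.59 ± 0.07, adjusted p = 1.3e-05; edgeR's quasi-likelihood test, as for every adjusted p here). The table has 1 count per gene and cannot show a deleted exon, so the level of Dot1l does not settle whether the label holds. The targeted gene was, even so, not lower under the knockout label. The sex read from the counts differed from the labelled sex in 4 of the 6 KO and WT libraries. It differed in 0 of the 8 EPZ and DMSO libraries. The KO and WT libraries are therefore called KO-labelled and WT-labelled, and every direction between them rests on those labels. Among 9 CD8 T cell markers, 7 were lower and 0 higher in the KO-labelled libraries and 6 lower and 0 higher in EPZ, with a summed level of 2369 to 2407 CPM in KO-labelled, 3857 to 4228 CPM in WT-labelled, 3071 to 3370.0 CPM in EPZ and 4226 to 4682 CPM in DMSO libraries. Cd8a averaged 115 CPM in KO-labelled, 706 CPM in WT-labelled, 399 CPM in EPZ and 834 CPM in DMSO libraries, while Cd3e averaged 582.2 CPM in KO-labelled, 523.5 CPM in WT-labelled, 547.4 CPM in EPZ and 607.4 CPM in DMSO libraries. NK cell markers went the other way, with 6 of 7 tested higher in the KO-labelled libraries and 4 of 6 higher in EPZ. Their summed level was 481 to 581 CPM in KO-labelled, 255 to 343 CPM in WT-labelled, 242 to 297 CPM in EPZ and 138 to 178 CPM in DMSO libraries. Most of this sum was Eomes, which averaged 302 CPM in KO-labelled, 247 CPM in WT-labelled, 223 CPM in EPZ and 142 CPM in DMSO libraries. Ncr1 averaged 4.52 CPM in KO-labelled, 0 CPM in WT-labelled, 0.407 CPM in EPZ and 0 CPM in DMSO libraries. In the same order Fcgr3 averaged 50.4, 1.04, 5.21 and 0.555 CPM and Fcer1g 61.5, 4.45, 3.93 and 1.46 CPM. Klrb1c averaged 74.5, 15.7, 27.5 and 4.38 CPM and Tyrobp 9.66, 0.690, 1.16 and 0.730 CPM. Klrc1, which did not pass in the KO-labelled libraries, averaged 25.4, 23.2, 10.9 and 8.72 CPM. Markers of other cells could be tested in part. Of 10 B cell markers 3 were tested, and all 3 were lower in the KO-labelled libraries and 2 in EPZ, with Ms4a1 and Blnk at 0 in every library and sums, nearly all from Ighm, of 121 to 142 CPM in KO-labelled, 484 to 594 CPM in WT-labelled, 424 to 555 CPM in EPZ and 1041 to 1295 CPM in DMSO libraries. Ighm encodes the heavy chain of immunoglobulin M. Of 11 myeloid markers 4 were tested, 3 were higher in the KO-labelled libraries and 2 in EPZ, and Spi1 was at 0 in every library, with sums of 45.6 to 62.8 CPM in KO-labelled, 16.9 to 20.9 CPM in WT-labelled, 14.9 to 17.0 CPM in EPZ and 8.44 to 14.0 CPM in DMSO libraries. CD4 and regulatory T cell markers were lower for 3 and higher for 1 of 5 tested in the KO-labelled libraries and lower for 4 of 6 in EPZ, with sums of 228 to 263 CPM in KO-labelled, 393 to 410.0 CPM in WT-labelled, 299 to 342 CPM in EPZ and 472 to 549 CPM in DMSO libraries. Most of these sums was Il2ra, which averaged 162 CPM in KO-labelled, 308 CPM in WT-labelled, 226 CPM in EPZ and 341 CPM in DMSO libraries. Cd4 itself averaged 0.506, 0.425, 1.36 and 3.36 CPM in the same order. Of 9 symbols listed for gamma delta T cell markers 6 were in the table. The absent symbols, Tcrg-C1, Tcrg-C2 and Tcrg-C4, are older names of the listed genes Trgc1, Trgc2 and Trgc4, so no marker gene was missing. Of the 6 genes 4 were tested, and all 4 were lower in the KO-labelled libraries and 1 in EPZ. Their sums were 113 to 121 CPM in KO-labelled, 211 to 265 CPM in WT-labelled, 248 to 278 CPM in EPZ and 241 to 260.0 CPM in DMSO libraries. The part of all these markers in the results below was not tested. In RNA from whole cultures, fewer cells that express a gene and less of its RNA per cell cannot be told apart.

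Most of the machinery was lower in the KO-labelled libraries. Of the 40 members, 23 fell and 4 rose, against 20.2% of all 11570 genes tested that were lower and 20.3% that were higher. The members were chosen with earlier results of these data known. Their shares beside those of all genes, here and below, are therefore descriptive. The members that fell span the cascade, with PLCG1, the adaptors GADS (Grap2) and ADAP (Fyb) and the LCK-inhibitor anchor PAG (Pag1) at or past a log2 fold change of -1. The 4 that rose were Icos, Txk, Lcp2 and Sh2d2a. Altogether 27 of 40 members (67.5%) passed, against 40.4% of all genes. The median log2 fold change of the members was -0.28, against -0.01 over all genes tested, and 34 of the 40 were below 0, against 50.8% of all genes. All 3 KO-labelled libraries lay below all 3 WT-labelled ones for 29 members (26.8% of all genes) and above them for 4 (24.4% of all genes). By step, 7 of 7 members fell in the calcium and NFAT step, 5 of 6 among the brakes, 4 of 7 in the LAT and SLP-76 signalosome, 3 of 6 among the kinases and their anchors, 2 of 7 among the actin and adhesion adaptors, 1 of 4 in the Ras and NF-kB step and 1 of 3 at the receptor level. The medians of the steps ran from -0.56 for the brakes to 0.12 at the receptor level. Across the fits without each of the 6 libraries, 23 to 28 members passed, and 22 of the 27 passed in all 6.

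**Figure D1:**
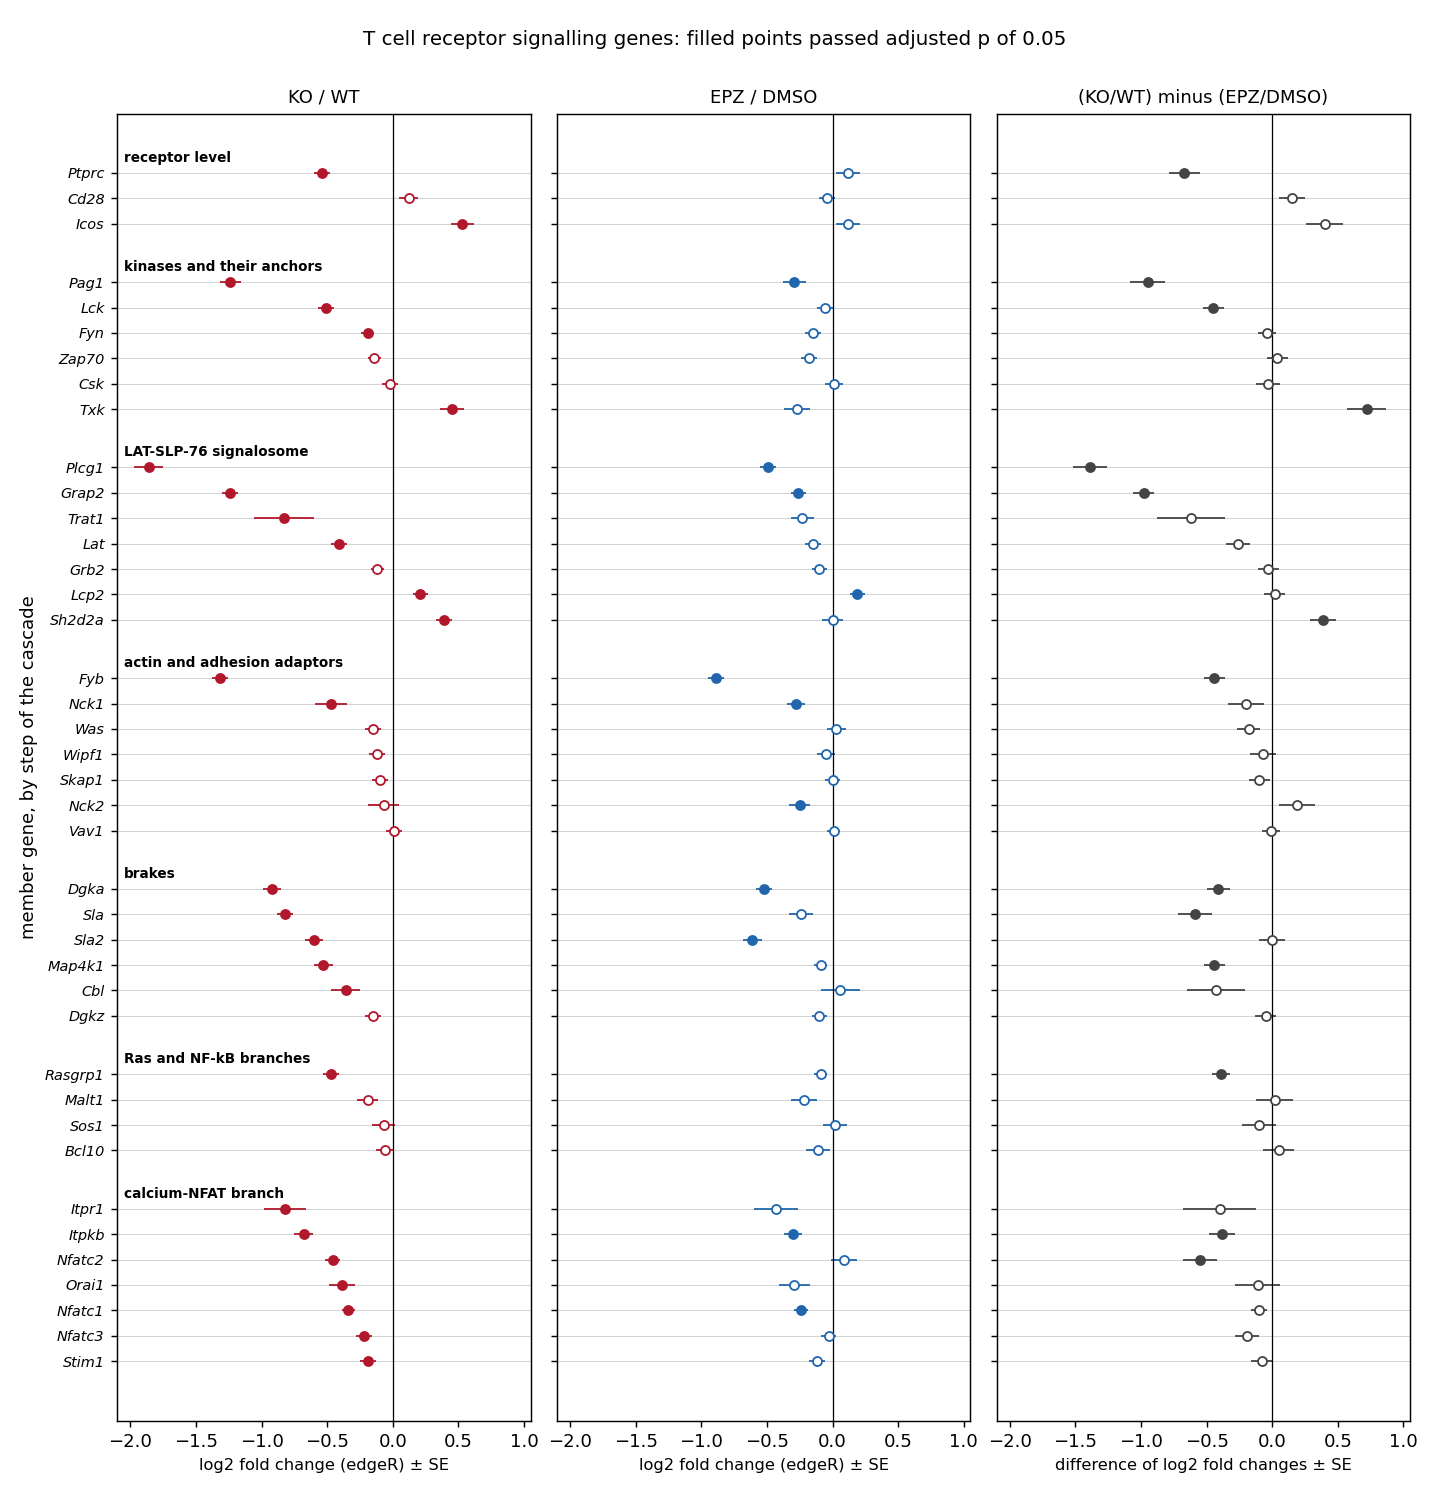
Log2 fold change of each of the 40 members, grouped by step of the cascade. The panels show KO-labelled over WT-labelled libraries, EPZ over DMSO, and the difference of these effects. Bars are 1 standard error, and filled points had an adjusted p below 0.05 over all genes tested. The KO-labelled changes run from -1.86 (Plcg1) to 0.53 (Icos) and the EPZ changes from -0.89 (Fyb) to 0.19 (Lcp2).

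Fewer members passed in the inhibitor experiment. In EPZ, 10 members fell and 1, Lcp2, rose, against 8.31% of all 12208 genes tested that were lower and 11.9% that were higher. The largest changes in size were those of Fyb, Sla2, Dgka and Plcg1. Altogether 11 of 40 (27.5%) passed, against 20.2% of all genes. The median log2 fold change was -0.12, against -0.01 over all genes, and 30 of 40 members were below 0, against 51.4% of all genes. No member reached a log2 fold change of 1 in size, whereas 4 did between the KO-labelled and WT-labelled libraries. All 4 EPZ libraries lay below all 4 DMSO libraries for 15 members (10.7% of all genes) and above them for 1 (13.5% of all genes). Within animals, 20 members were lower in EPZ in all 4 animals, against 21.2% of all genes, and 1 was higher in all 4, against 24.3%. By step, 3 of 7 actin and adhesion adaptors fell, 2 of 7 signalosome members, 2 of 6 brakes, 2 of 7 calcium and NFAT members and 1 of 6 kinases and anchors, with 0 of 3 at the receptor level and 0 of 4 in the Ras and NF-kB step. Across the fits without each of the 8 libraries, 8 to 10 members passed and 7 of the 11 passed in all 8, while no member passed as higher in any of them. These tests had no term for the animal, although EPZ and DMSO libraries share the same 4 animals. With the animal as a block, 13 members fell and 1 rose, and 3163 of all 12208 genes passed, against 2463 without it.

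The direct test of the difference, (KO minus WT) minus (EPZ minus DMSO), passed for 14 of 40 members (35%), against 7.6% of all 12639 genes. It was below 0 for 12 (4.31% of all genes) and above 0 for 2, Txk and Sh2d2a (3.29% of all genes). Members that fell in both comparisons numbered 9, namely Pag1, Grap2, Plcg1, Nck1, Fyb, Sla2, Dgka, Itpkb and Nfatc1. They are 39.1% of the 23 that fell in the KO-labelled libraries and 90% of the 10 that fell in EPZ, and the same shares over all genes tested in both were 30.2% and 72.9%. These shares rest on the KO and WT labels: with them exchanged, all 10 members that passed in both comparisons, Lcp2 included, would have opposite signs in the 2 comparisons. The fall was larger in the KO-labelled libraries for 6 of these 9 by the difference test, while for Nck1, Sla2 and Nfatc1 the test did not pass. Another 17 members passed between KO-labelled and WT-labelled libraries but not between EPZ and DMSO, 1 (Nck2) passed in EPZ and not in the KO-labelled libraries, and 12 passed in neither. Of those 17, the difference itself passed for 8, namely Ptprc, Lck, Txk, Sh2d2a, Sla, Map4k1, Rasgrp1 and Nfatc2.

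**Figure D2:**
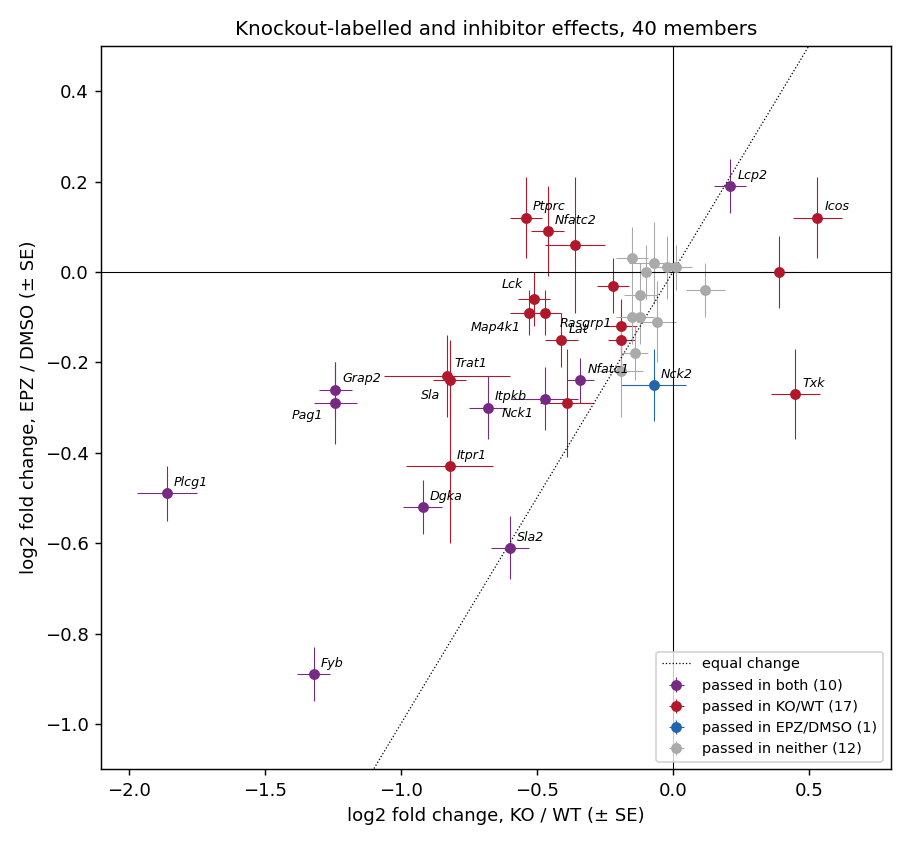
Log2 fold change of the 40 members in KO-labelled over WT-labelled libraries (horizontal) against that in EPZ over DMSO (vertical), with bars of 1 standard error, colours for the comparison in which a member passed and a dotted line of equal change. Sla2 and Lcp2 lie near the line, Plcg1 and Grap2 lie far above it, and Txk lies at lower right with 0.45 and -0.27.

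At the receptor level, the phosphatase CD45 (Ptprc), which removes the inhibitory phosphate from LCK, was lower in the KO-labelled libraries, and the costimulator Icos was higher. Ptprc had 2046, 1956 and 2019 CPM in the KO-labelled libraries, against 2865, 2986 and 2977 CPM in the WT-labelled ones. The ranges did not overlap, and the log2 fold change was -0.54 ± 0.06, adjusted p = 1.5e-05. In the inhibitor experiment Ptprc had 3055, 3530.5, 3065 and 3560.4 CPM in EPZ, against 2636, 2884, 3461 and 3189 CPM in DMSO, and these overlapped (log2 fold change 0.12 ± 0.09, adjusted p = 0.4). The difference of the effects was -0.67 ± 0.12, adjusted p = 0.00202. Icos, an inducible costimulatory receptor, averaged 74.0 ± 7.41 CPM in the KO-labelled and 51.3 ± 3.93 CPM in the WT-labelled libraries (SD, n = 3 each) and rose by 0.53 ± 0.09 on the log2 scale (adjusted p = 3.1e-04). Its log2 fold change in EPZ was 0.12 ± 0.09, adjusted p = 0.358. The difference of the effects on Icos, 0.40 ± 0.14, adjusted p = 0.0886, passed with the replicate block (adjusted p = 0.0348) and without DMSO 4 (0.0316). The costimulatory receptor Cd28, itself a target of the activating antibody, did not pass in either comparison (0.12 ± 0.07 in the KO-labelled libraries and -0.04 ± 0.06 in EPZ on the log2 scale).

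Among the kinases and their anchors, Pag1 moved most. PAG is a membrane adaptor that brings CSK, the kinase that puts the inhibitory phosphate on LCK, to the membrane. The gene (ENSMUSG00000027508, mm10 chr3:9687479-9833679, minus strand) had 65.4, 73.3 and 71.9 CPM in the KO-labelled libraries, against 173, 180.4 and 149 CPM in the WT-labelled ones. Every KO-labelled library was below every WT-labelled one, with a log2 fold change of -1.24 ± 0.08, adjusted p = 1.4e-07. In the inhibitor experiment it had 87.7, 108, 84.7 and 103 CPM in EPZ, against 110.1, 112, 129 and 119.6 CPM in DMSO, the groups did not overlap, and the log2 fold change was -0.29 ± 0.09, adjusted p = 0.0364. That smaller call was lost without DMSO 3 (adjusted p = 0.0613), DMSO 4 (0.0608), EPZ 1 (0.0829) or EPZ 3 (0.0613). The fall was larger in the KO-labelled libraries (-0.95 ± 0.13, adjusted p = 2.6e-04 for the difference). Csk itself did not pass in either comparison (-0.02 ± 0.06 in KO-labelled and 0.01 ± 0.07 in EPZ libraries on the log2 scale).

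Lck, whose product starts the cascade, averaged 694 ± 19.4 CPM in the KO-labelled and 996 ± 25.8 CPM in the WT-labelled libraries (SD, n = 3 each), with no overlap and a log2 fold change of -0.51 ± 0.06, adjusted p = 1.2e-05. It averaged 847 ± 33.9 CPM in EPZ and 888 ± 35.2 CPM in DMSO (SD, n = 4 each), where the test did not pass (-0.06 ± 0.06, adjusted p = 0.487), and the difference did (-0.45 ± 0.08, adjusted p = 0.00169). Its relative Fyn fell slightly in the KO-labelled libraries (-0.19 ± 0.05, adjusted p = 0.0134), a call that was lost without KO 1 (adjusted p = 0.105) or KO 2 (0.107), and it did not pass in EPZ (-0.15 ± 0.06, adjusted p = 0.0812). Zap70 did not pass in either comparison (-0.14 ± 0.05, adjusted p = 0.0627 in the KO-labelled libraries and -0.18 ± 0.06, adjusted p = 0.0515 in EPZ), although it passed in EPZ without DMSO 3 (0.0254), with DESeq2 (0.0182), with limma-voom (0.0434) and with all 14 libraries in 1 fit (0.0162). Txk, a Tec-family kinase of T cells, went the other way. It averaged 133 ± 5.33 CPM in the KO-labelled and 98.1 ± 12.5 CPM in the WT-labelled libraries (SD, n = 3 each) and rose by 0.45 ± 0.09 on the log2 scale (adjusted p = 9.6e-04). The inhibitor experiment gave 97.2 ± 9.82 CPM in EPZ and 118 ± 17.8 CPM in DMSO (SD, n = 4 each) and did not pass (-0.27 ± 0.10, adjusted p = 0.0819). Without EPZ 2 that EPZ value passed (adjusted p = 0.042). Txk had the largest positive difference of effects among the members (0.72 ± 0.15, adjusted p = 0.0074).

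The LAT and SLP-76 signalosome held the member that fell most, Plcg1, and a split between adaptors that fell and adaptors that rose. PLCG1 makes the second messengers of the cascade, IP3 and diacylglycerol. The gene (ENSMUSG00000016933, mm10 chr2:160731300-160775760, plus strand) had 91.8, 99.4 and 71.3 CPM in the KO-labelled libraries, against 291, 350.3 and 325 CPM in the WT-labelled ones. The groups were far apart, with a log2 fold change of -1.86 ± 0.11, adjusted p = 3.4e-08. Plcg1 in the inhibitor experiment had 268, 272, 288 and 254 CPM in EPZ, against 375, 375, 401 and 370.1 CPM in DMSO. Again no library overlapped, but the log2 fold change was smaller, at -0.49 ± 0.06, adjusted p = 3.6e-04, and the difference was -1.39 ± 0.13, adjusted p = 6.9e-06. Of the 40 members 13 share exon bases with another gene, 11 of them with one on the opposite strand. Plcg1 shares 379 exon bases with Zhx3 and 248 with Gm27206 on the opposite strand, and the strand setting of the counting is not given in the sources used here.

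Grap2 encodes GADS, the adaptor that bridges LAT and SLP-76. It (ENSMUSG00000042351, mm10 chr15:80572594-80652854, plus strand) had 287, 288 and 265 CPM in the KO-labelled libraries, against 639, 665 and 689.7 CPM in the WT-labelled ones. The log2 fold change was -1.24 ± 0.06, adjusted p = 9.5e-09, and no library overlapped. The inhibitor experiment also had no overlap, with 607, 596, 587 and 629 CPM in EPZ, against 725, 744, 698 and 733 CPM in DMSO (log2 fold change -0.26 ± 0.06, adjusted p = 0.00785). The difference of effects was -0.98 ± 0.08, adjusted p = 2.1e-06. Lcp2, the gene of SLP-76 itself, moved the other way in both comparisons. It had 602, 553 and 576 CPM in the KO-labelled libraries, against 492, 495 and 519 CPM in the WT-labelled ones. The groups did not overlap, and the log2 fold change was 0.21 ± 0.06, adjusted p = 0.0123, a call that was lost without KO 1 (adjusted p = 0.102). It had 435, 454, 477 and 457 CPM in EPZ, against 411, 394, 387 and 414 CPM in DMSO, also without overlap, and a log2 fold change of 0.19 ± 0.06, adjusted p = 0.0397. That call was lost without any single one of the 8 libraries (adjusted p of 0.0651 to 0.124), and it did not pass with RLE scaling (0.0539) or without the filter (0.147). Lcp2 shares 282 exon bases with 4930469K13Rik on the opposite strand.

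Of the other signalosome members, the scaffold Lat averaged 429 ± 25.6 CPM in the KO-labelled and 572 ± 13.7 CPM in the WT-labelled libraries (SD, n = 3 each) and fell (-0.41 ± 0.06, adjusted p = 1.5e-04), while in EPZ it did not pass (-0.15 ± 0.06, adjusted p = 0.105). Trat1, a small transmembrane adaptor associated with the receptor, had 13.8, 14.6 and 14.7 CPM in the KO-labelled libraries, against 21.8, 41.8 and 19.2 CPM in the WT-labelled ones. WT 2 stood well above the other WT-labelled libraries. It is the shallowest library of all, with 5643724 counts. It is also the only WT-labelled library that reads as female, with Xist at 1650 CPM and Ddx3y at 0 CPM. The part of depth or sex in its Trat1 level was not tested. The log2 fold change was -0.83 ± 0.23, adjusted p = 0.0118 with WT 2 and -0.48 (adjusted p = 0.00388) without it. In EPZ, Trat1 had a log2 fold change of -0.23 ± 0.09, adjusted p = 0.098, which passed with the animal as a replicate block (adjusted p = 0.0378). The difference for Trat1, -0.62 ± 0.26, adjusted p = 0.175, passed without WT 3 (0.046). Sh2d2a, an adaptor that binds LCK, rose in the KO-labelled libraries (0.39 ± 0.06, adjusted p = 1.2e-04) and did not pass in EPZ (0.00 ± 0.08, adjusted p = 0.993). Their difference of 0.39 ± 0.10, adjusted p = 0.0322 was lost without any of 9 libraries (KO 1, KO 2, KO 3, WT 1, WT 2, EPZ 2, EPZ 4, DMSO 1 or DMSO 4, adjusted p of 0.0507 to 0.0867). Grb2, which brings the Ras activator SOS to LAT, did not pass (-0.12 ± 0.05 in KO-labelled and -0.10 ± 0.06 in EPZ libraries).

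The start regions of the 3 members that fell most and have a window, and of Lcp2, the 1 member that rose in both comparisons, are printed for context. They run from 250 bases before to 50 after the start given by RefSeq for GRCm38.p6, all on the plus strand, at chr2:160731060-160731359 for Plcg1, chr15:80623233-80623532 for Grap2, chr15:6579597-6579896 for Fyb and chr11:34046678-34046977 for Lcp2. Capitals mark matches, on either strand, to 7 short motifs, namely CCGGAA for ETS factors, TGTGGT for RUNX factors, CTTTGA for TCF-LEF factors, GGGCGG for the GC box, AGATAA for the GATA-binding factors, CAGGTG for the E-box and TATAAA for the TATA-box.
Plcg1: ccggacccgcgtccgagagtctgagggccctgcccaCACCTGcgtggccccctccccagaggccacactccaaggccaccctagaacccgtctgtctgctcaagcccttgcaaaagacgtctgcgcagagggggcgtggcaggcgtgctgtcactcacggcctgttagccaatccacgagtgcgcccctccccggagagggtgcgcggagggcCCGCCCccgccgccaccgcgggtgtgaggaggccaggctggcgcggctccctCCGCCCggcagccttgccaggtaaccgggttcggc
Grap2: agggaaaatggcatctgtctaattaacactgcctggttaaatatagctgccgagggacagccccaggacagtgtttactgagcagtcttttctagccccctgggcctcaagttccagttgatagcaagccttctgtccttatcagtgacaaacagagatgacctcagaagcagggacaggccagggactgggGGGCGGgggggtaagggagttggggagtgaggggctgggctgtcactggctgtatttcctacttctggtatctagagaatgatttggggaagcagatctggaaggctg
Fyb: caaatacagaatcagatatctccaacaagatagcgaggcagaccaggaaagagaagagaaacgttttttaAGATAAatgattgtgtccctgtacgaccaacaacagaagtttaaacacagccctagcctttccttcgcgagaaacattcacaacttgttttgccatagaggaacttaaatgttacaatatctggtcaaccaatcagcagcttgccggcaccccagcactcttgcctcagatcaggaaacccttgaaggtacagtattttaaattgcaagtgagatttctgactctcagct
Lcp2: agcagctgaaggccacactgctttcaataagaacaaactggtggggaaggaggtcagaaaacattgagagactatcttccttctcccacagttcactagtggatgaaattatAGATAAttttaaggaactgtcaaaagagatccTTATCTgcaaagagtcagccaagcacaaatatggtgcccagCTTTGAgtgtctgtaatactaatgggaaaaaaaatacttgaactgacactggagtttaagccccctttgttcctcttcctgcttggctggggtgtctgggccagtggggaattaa
The Plcg1 window held 2 GC boxes and 1 E-box, the Grap2 window 1 GC box, the Fyb window 1 GATA motif, and the Lcp2 window 1 TCF-LEF and 2 GATA motifs, and no matches of different motifs overlapped. Among all 32851 windows of this length, 35.7% held a GC box, 20.2% an E-box, 16.8% a RUNX, 16% a TCF-LEF, 14.9% an ETS, 13.6% a TATA and 11.2% a GATA match. Of the 31 members with a window, 18 held a GC box, 10 an E-box, 9 a RUNX, 8 a TCF-LEF, 6 an ETS, 5 a TATA and 4 a GATA match. A member was counted if any of its windows held a match, whereas the shares above are of single windows. The member counts are therefore not comparable with those shares. A match describes the letters and is no evidence that a factor binds there. The windows of Plcg1 and Lcp2 cover the gene starts of the table, at chr2:160731300 and chr11:34046920. Those of Grap2 and Fyb lie wholly inside gene spans that begin at chr15:80572594 and chr15:6522853, away from the outermost start. Which start the cells used was not measured.

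Among the actin and adhesion adaptors, Fyb and Nck1 fell in both comparisons, Nck2 fell in EPZ, and the other 4 passed in neither. FYB, also called ADAP, links SLP-76 to the activation of integrins. The gene (ENSMUSG00000022148, mm10 chr15:6522853-6663313, plus strand) had 137, 129.8 and 134 CPM in the KO-labelled libraries, against 328, 336 and 340.0 CPM in the WT-labelled ones. The log2 fold change was -1.32 ± 0.06, adjusted p = 3.8e-09. Fyb in the inhibitor experiment had 210.0, 217, 236 and 199 CPM in EPZ, against 388, 403, 412 and 395 CPM in DMSO. Its log2 fold change there, -0.89 ± 0.06, adjusted p = 1.1e-05, was the largest in size of any member in EPZ, and neither comparison had overlapping libraries. The difference was -0.44 ± 0.08, adjusted p = 0.00374. Fyb shares 231 exon bases with the pseudogene Gm7666 on its own strand and 319 with Gm2245 on the other, so part of its counts is uncertain.

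Nck1, an adaptor that leads from CD3 and SLP-76 to actin, had 19.3, 20.8 and 24.1 CPM in the KO-labelled libraries, against 31.3, 33.7 and 26.1 CPM in the WT-labelled ones. The groups did not overlap (log2 fold change -0.47 ± 0.12, adjusted p = 0.00635). In the inhibitor experiment it had 33.2, 31.2, 32.0 and 27.8 CPM in EPZ, against 37.3, 39.7, 39.1 and 35.8 CPM in DMSO, again without overlap, and the log2 fold change of -0.28 ± 0.07, adjusted p = 0.0178 was lost without EPZ 4 (adjusted p = 0.0509). Its close relative Nck2 averaged 21.7 ± 1.45 CPM in EPZ and 25.8 ± 2.02 CPM in DMSO (SD, n = 4 each) and fell in EPZ (-0.25 ± 0.08, adjusted p = 0.0447), with a call that ended without any of 7 of the 8 libraries (all but DMSO 3, adjusted p of 0.0539 to 0.123), with library totals (0.0761), with no filter (0.0596) and with a filter of 10 CPM (0.0557). In the KO-labelled libraries Nck2 did not pass (-0.07 ± 0.12, adjusted p = 0.704). The Rac activator Vav1, the actin regulators Was and Wipf1, and Skap1, the partner of FYB, passed in neither comparison, with log2 fold changes of -0.15 (Was) to 0.01 (Vav1) in the KO-labelled libraries and -0.05 (Wipf1) to 0.03 (Was) in EPZ.

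**Figure D3:**
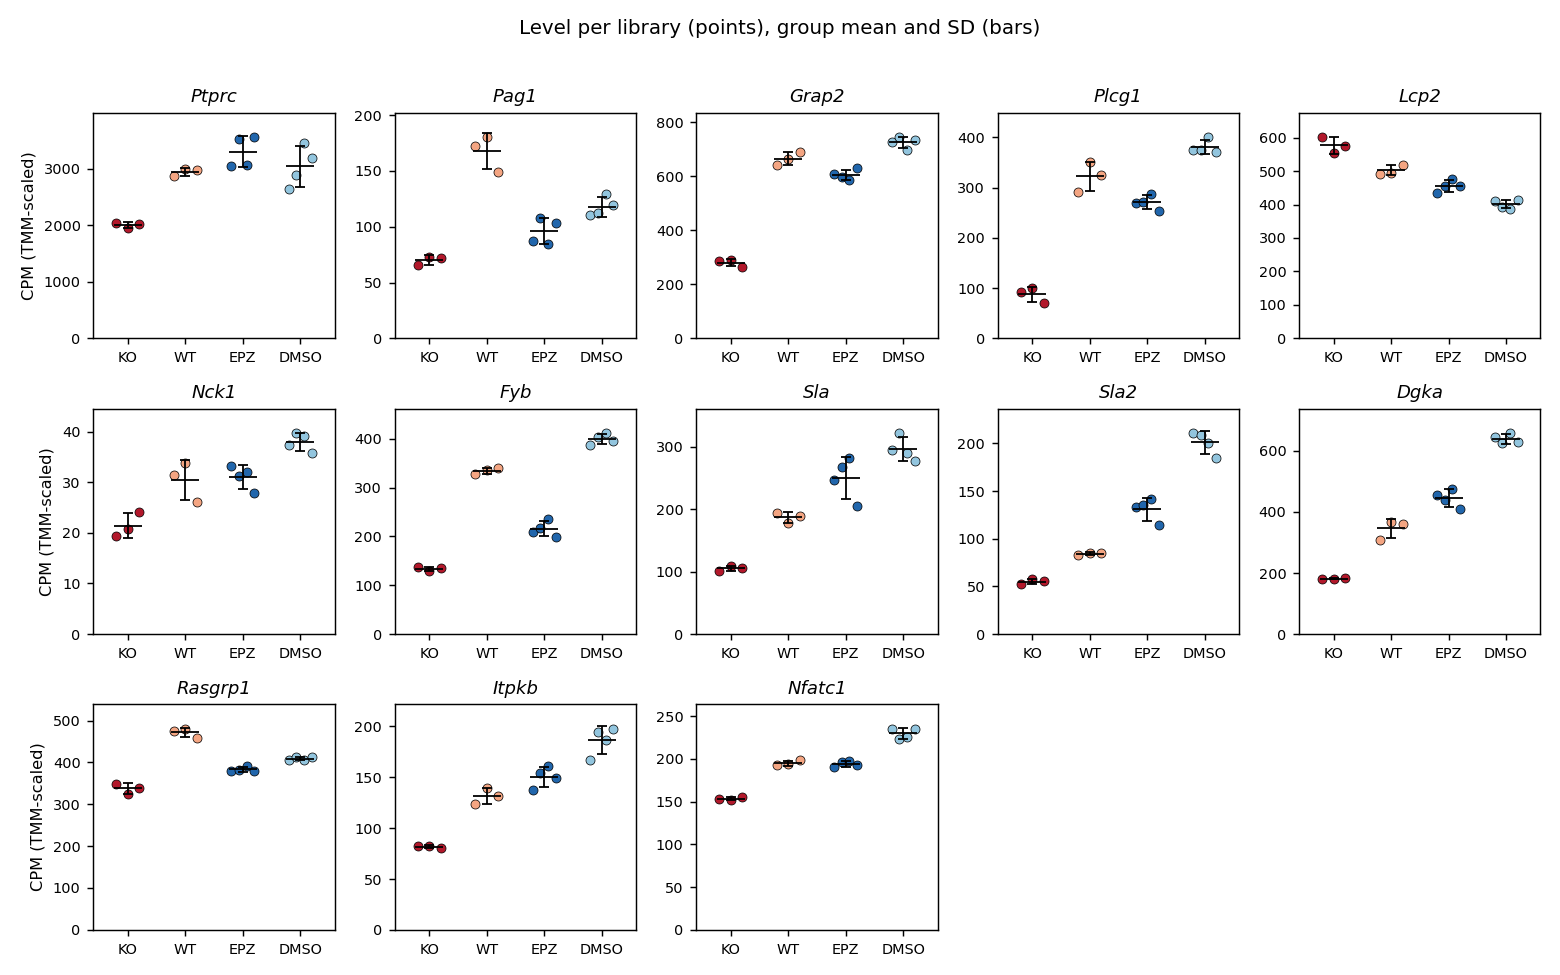
Level in CPM of 13 members, 1 point per library, with group means as lines, bars of 1 SD and KO left of WT and EPZ left of DMSO in each panel. Plcg1, Grap2, Fyb and Pag1 are lower in every KO-labelled library than in every WT-labelled one, and Lcp2 is higher.

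Of the 6 brakes, 5 fell in the KO-labelled libraries and 2 in EPZ, and Dgkz passed in neither. Dgka encodes a diacylglycerol kinase, which ends the diacylglycerol signal by turning it into phosphatidic acid. It had 181, 181 and 183 CPM in the KO-labelled libraries, against 309, 368 and 361 CPM in the WT-labelled ones. The groups were far apart (log2 fold change -0.92 ± 0.07, adjusted p = 4.4e-07). Dgka in the inhibitor experiment had 457, 438, 477 and 410.0 CPM in EPZ, against 644, 624, 659 and 628 CPM in DMSO, also without overlap (log2 fold change -0.52 ± 0.06, adjusted p = 3.3e-04). The difference, -0.41 ± 0.09, adjusted p = 0.0135, was lost without KO 2 (0.0633). DMSO libraries held more Dgka than WT-labelled ones, a gap between experiments that was not tested. Dgkz, its relative, missed the threshold in both comparisons (-0.15 ± 0.06, adjusted p = 0.0627 in KO-labelled and -0.10 ± 0.06, adjusted p = 0.276 in EPZ libraries), although it passed in the KO-labelled libraries without WT 1 (0.0493). Dgka shares 105 exon bases with Pmel on the opposite strand.

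SLAP (Sla) and SLAP-2 (Sla2) are adaptors that help CBL remove receptor chains and so lower signalling. Sla2 had 52.4, 57.6 and 55.3 CPM in the KO-labelled libraries, against 82.7, 85.2 and 85.0 CPM in the WT-labelled ones. Sla2 in the inhibitor experiment had 133, 135, 142 and 114 CPM in EPZ, against 211, 208, 200.3 and 184 CPM in DMSO. No library overlapped in either comparison, and the log2 fold changes were nearly the same size, -0.60 ± 0.07, adjusted p = 1.5e-05, in the KO-labelled libraries and -0.61 ± 0.07, adjusted p = 3.0e-04, in EPZ, with a difference of 0.00 ± 0.10, adjusted p = 0.988. Sla2 shares 731 exon bases with Rab5if on the opposite strand. Sla had 101, 109 and 106 CPM in the KO-labelled libraries, against 195, 178 and 189.7 CPM in the WT-labelled ones. The log2 fold change was -0.82 ± 0.06, adjusted p = 3.1e-07. Sla in the inhibitor experiment had 246, 268, 283 and 205 CPM in EPZ, against 294, 322, 291 and 277 CPM in DMSO, and all 4 EPZ libraries lay below all 4 DMSO ones except EPZ 3, which was above DMSO 4. The EPZ log2 fold change of -0.24 ± 0.09, adjusted p = 0.0948 did not pass, but it passed with the animal as a replicate block (adjusted p = 0.0306) and without EPZ 3 (0.0405). The difference for Sla was -0.59 ± 0.13, adjusted p = 0.00804.

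Map4k1, the gene of the kinase HPK1 that marks SLP-76 for removal from the signalosome, averaged 139 ± 9.00 CPM in the KO-labelled and 202 ± 12.1 CPM in the WT-labelled libraries (SD, n = 3 each) and fell (-0.53 ± 0.07, adjusted p = 4.7e-05), with 184 ± 4.28 CPM in EPZ and 196 ± 1.79 CPM in DMSO (SD, n = 4 each) (-0.09 ± 0.05, adjusted p = 0.195) and a difference of -0.44 ± 0.08, adjusted p = 0.00225. The ubiquitin ligase gene Cbl averaged 395 ± 23.6 CPM in the KO-labelled and 512 ± 91.9 CPM in the WT-labelled libraries (SD, n = 3 each) and fell by less (-0.36 ± 0.11, adjusted p = 0.0155). The Cbl call was lost without KO 2 (adjusted p = 0.0933), and without WT 2 the log2 fold change was -0.22 (adjusted p = 0.0421). In EPZ, Cbl did not pass (0.06 ± 0.15, adjusted p = 0.825).

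Of the 4 Ras and NF-kB members 1, Rasgrp1, fell in the KO-labelled libraries and none passed in EPZ. RASGRP1 is the Ras activator that diacylglycerol recruits. The gene had 349, 324 and 339 CPM in the KO-labelled libraries, against 475, 481 and 459 CPM in the WT-labelled ones. These did not overlap (log2 fold change -0.47 ± 0.06, adjusted p = 2.8e-05). Rasgrp1 in the inhibitor experiment had 379, 381, 391 and 380.1 CPM in EPZ, against 405, 413, 406 and 412 CPM in DMSO. All 4 EPZ libraries lay below all 4 DMSO libraries, by a small margin that did not pass (-0.09 ± 0.05, adjusted p = 0.233), and the difference was -0.39 ± 0.07, adjusted p = 0.00234. Sos1, the Ras activator that GRB2 carries, and Bcl10, an adaptor of the NF-kB branch that binds MALT1, passed in neither comparison (-0.07 ± 0.09 and -0.06 ± 0.07 in KO-labelled, 0.02 ± 0.09 and -0.11 ± 0.09 in EPZ libraries). Malt1, the protease of that pair, did not pass in the KO-labelled libraries (-0.19 ± 0.08, adjusted p = 0.0704) but passed without WT 3 (0.00824) and with no filter (0.0409). Its EPZ value of -0.22 ± 0.10, adjusted p = 0.128 passed with the animal as a replicate block (adjusted p = 0.0135) and without DMSO 4 (0.0492).

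In the calcium and NFAT step all 7 members fell in the KO-labelled libraries, by modest amounts, and Itpkb and Nfatc1 also fell in EPZ. Itpkb encodes a kinase that turns IP3 into IP4. It had 82.2, 83 and 80.3 CPM in the KO-labelled libraries, against 124, 139.9 and 132 CPM in the WT-labelled ones. Itpkb in the inhibitor experiment had 138, 154, 161 and 149 CPM in EPZ, against 167, 194, 187 and 198 CPM in DMSO. Neither comparison had overlapping libraries, and the log2 fold changes were -0.68 ± 0.07, adjusted p = 4.1e-06, in the KO-labelled libraries and -0.30 ± 0.07, adjusted p = 0.0103, in EPZ. The difference of -0.38 ± 0.10, adjusted p = 0.0225 was lost without any of 7 libraries (KO 1, KO 2, KO 3, WT 2, WT 3, EPZ 3 or DMSO 1, adjusted p of 0.0508 to 0.0852). Itpr1, the IP3 receptor of the calcium store, averaged 40.3 ± 3.65 CPM in the KO-labelled and 73.1 ± 19.2 CPM in the WT-labelled libraries (SD, n = 3 each) and fell (-0.82 ± 0.16, adjusted p = 0.00127), with a log2 fold change of -0.43 ± 0.17, adjusted p = 0.1 in EPZ. Its standard errors were among the largest of the members.

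The store sensor Stim1 fell slightly (-0.19 ± 0.06, adjusted p = 0.019), a call that was lost without KO 2 (0.0642) or KO 3 (0.076), and the channel Orai1 fell with 15.9 ± 1.70 CPM in the KO-labelled and 21.1 ± 0.28 CPM in the WT-labelled libraries (SD, n = 3 each) (-0.39 ± 0.10, adjusted p = 0.00844). Neither passed in EPZ (-0.12 ± 0.06, adjusted p = 0.152 for Stim1 and -0.29 ± 0.12, adjusted p = 0.105 for Orai1). Nfatc1, a transcription factor that calcium signals send to the nucleus, had 154, 152 and 155 CPM in the KO-labelled libraries, against 192, 194 and 199 CPM in the WT-labelled ones. Nfatc1 in the inhibitor experiment had 191, 197, 198 and 193 CPM in EPZ, against 236, 223, 226 and 235 CPM in DMSO. The libraries did not overlap in either comparison, and the log2 fold changes of -0.34 ± 0.05, adjusted p = 2.9e-04, in the KO-labelled libraries and -0.24 ± 0.05, adjusted p = 0.00585, in EPZ had a difference that did not pass (-0.10 ± 0.06, adjusted p = 0.38). Its relative Nfatc2 averaged 164 ± 5.49 CPM in the KO-labelled and 226 ± 7.41 CPM in the WT-labelled libraries (SD, n = 3 each) and fell (-0.46 ± 0.06, adjusted p = 4.7e-05), with 0.09 ± 0.10, adjusted p = 0.561 in EPZ. The difference for Nfatc2, -0.55 ± 0.13, adjusted p = 0.0149, was lost without KO 2 (0.0543). Nfatc3 fell by less (-0.22 ± 0.06, adjusted p = 0.0134), a call that was lost without KO 1 (0.113) or KO 2 (0.0976), and it did not pass in EPZ (-0.03 ± 0.06, adjusted p = 0.74).

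Levels between genes were compared per kb of exon. By this measure Lck ranked highest in all 4 groups, at 237, 340.0, 289 and 303 CPM per kb in KO-labelled, WT-labelled, EPZ and DMSO libraries. The length counts every annotated exon of a gene, 2929 bases for Lck and 18313 for Ptprc, so the ranks depend on it. Before this scaling Ptprc stood above Lck, with 2007, 2943, 3303 and 3043 CPM against 694, 996, 847 and 888 CPM in the same order. Lat had rank 2 in KO-labelled, WT-labelled and DMSO libraries and Ptprc had rank 2 in EPZ. At the other end Sos1, Nck2 and Itpr1 had 2.20 to 5.80 CPM per kb. Some members that fell had another rank, while Lck, Lat, Nfatc1, Itpkb, Nck1 and Trat1 had the same rank in KO-labelled and WT-labelled libraries. Plcg1, at 11.1 CPM per kb in KO-labelled and 41.0 in WT-labelled libraries, was the member of rank 32 and 22, with rank 23 in EPZ and 21 in DMSO. Grap2 had 44.9 CPM per kb and rank 18 in KO-labelled and 106 and rank 7 in WT-labelled libraries. Dgka had 38.2 CPM per kb and rank 19 in KO-labelled, 72.7 and rank 12 in WT-labelled, 93.5 and rank 7 in EPZ and 134 and rank 4 in DMSO libraries. Neighbours can lie closer than their spread, as with Csk, Fyn, Grap2 and Zap70, which had 108 ± 3.16, 108 ± 1.81, 106 ± 4.02 and 105 ± 3.92 CPM per kb in WT-labelled libraries (SD, n = 3 each).

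**Figure D4:**
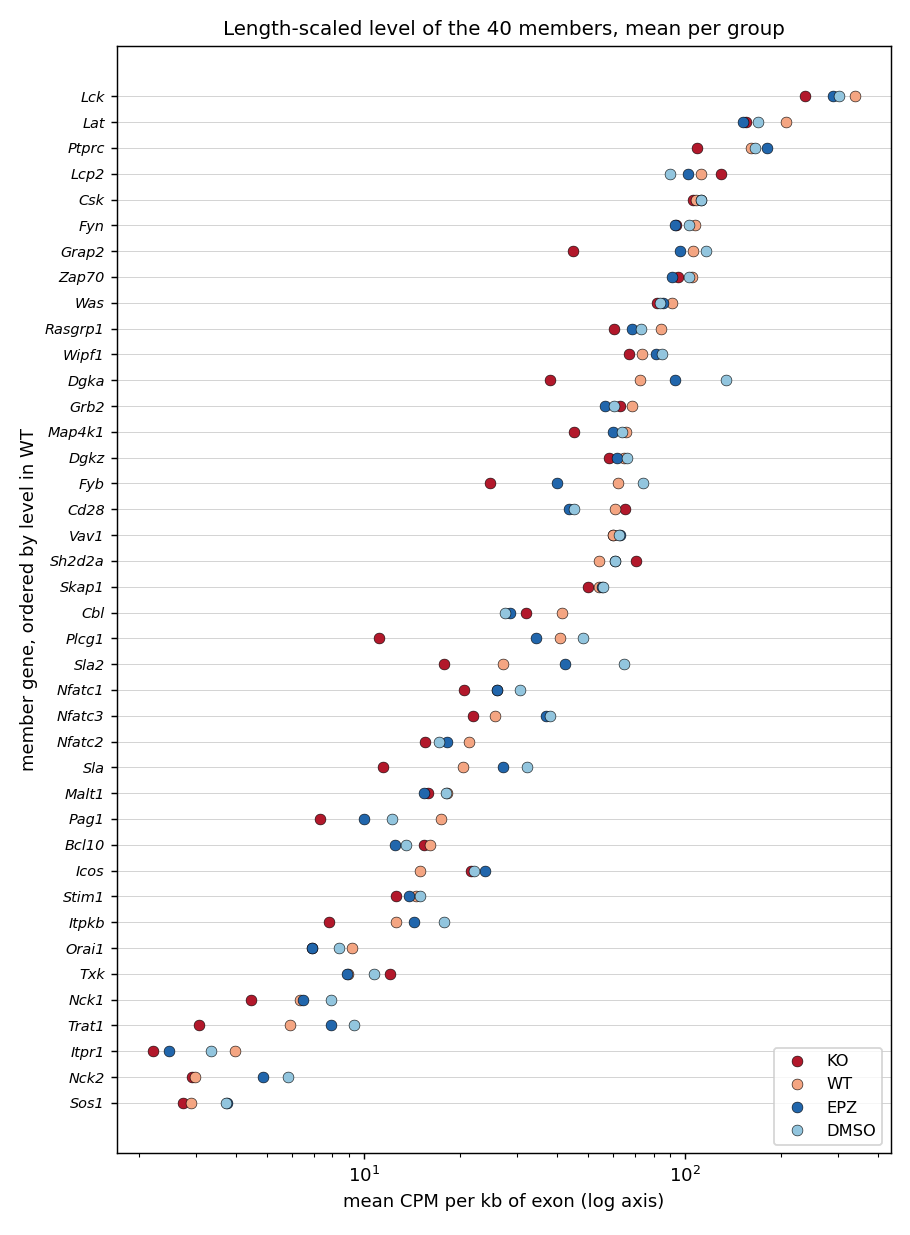
Mean level of each of the 40 members in CPM per kb of exon (logarithmic axis) in the 4 groups, with the members ordered by their level in WT. Lck stands at the top in every group, and the KO-labelled points of Plcg1 and Grap2, at 11.1 and 44.9 CPM per kb, lie furthest left of the other groups.

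Of 71 other genes of the cascade, also chosen with earlier results of these data known, 68 were tested in both comparisons. In the KO-labelled libraries 26 fell and 11 rose, against 20.2% and 20.3% of all genes, with a median log2 fold change of -0.12. In EPZ 16 fell and 2 rose, against 8.31% and 11.9% of all genes, with a median of -0.04. Rhoh, an atypical GTPase that T cell receptor signalling needs for ZAP70 recruitment, fell by 1.35 ± 0.07 on the log2 scale in the KO-labelled libraries (adjusted p = 1.6e-08) and by 0.73 ± 0.09 in EPZ (adjusted p = 3.9e-04). Rasgrp2, an activator of the integrin regulator RAP1, fell in both (-1.38 ± 0.12, adjusted p = 1.2e-06 in KO-labelled and -0.76 ± 0.07, adjusted p = 7.4e-05 in EPZ libraries). Dgkd, another diacylglycerol kinase gene, also fell in both (-1.0 ± 0.08, adjusted p = 5.7e-07 in KO-labelled and -0.48 ± 0.06, adjusted p = 3.5e-04 in EPZ libraries), and Tec, a kinase related to TXK, fell in EPZ (-0.76 ± 0.09, adjusted p = 3.6e-04), with -0.21 ± 0.12, adjusted p = 0.195 in KO-labelled libraries. Among those that rose, Rasgrp4, a Ras activator best known from mast cells, did so in both (0.71 ± 0.08, adjusted p = 2.2e-05 in KO-labelled and 0.87 ± 0.14, adjusted p = 0.00171 in EPZ libraries). Itpkc, an IP3 kinase, rose in the KO-labelled libraries (0.73 ± 0.14, adjusted p = 0.00132), with -0.03 ± 0.12, adjusted p = 0.905 in EPZ, and Mapk3, an ERK kinase gene, rose in both (0.33 ± 0.07, adjusted p = 0.00172 in KO-labelled and 0.22 ± 0.06, adjusted p = 0.0286 in EPZ libraries).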

How the data were processed

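The values are raw read counts that the authors deposited for each Ensembl gene and library, without normalization. The submitters' processing notes name TopHat2 2.1, Bowtie 1.1, TopHat, HTSeq and the build mm10, and the kit was stranded per the labels' protocols. No source used here gives the strand setting of the counting or the annotation release. An unnamed line with 0 counts was dropped. Coordinates of 54906 of the 55486 gene IDs (99.0%) were the same in GENCODE M21, from which exon lengths and overlaps were taken. Promoter windows came from RefSeq GRCm38.p6, for 31 of the 40 members.

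The test was edgeR's quasi-likelihood F-test (edgeR 4.0.16, R 4.3.3) with TMM factors and filterByExpr at 10 counts per gene and 15 in total, and a gene passed at a Benjamini-Hochberg adjusted p below 0.05 over the whole table. The comparison of KO with WT used 6 libraries, that of EPZ with DMSO 8, and the difference of the effects all 14. None of these main fits had a term for the animal or the replicate number. A standard error is the log2 fold change divided by the square root of its F. CPM values are counts scaled with the TMM factors, and differences within animals used a pseudocount of 1 CPM. DESeq2 1.42.0 and limma 3.58.1 were run as alternatives, next to other scalings and filters, thinned counts, the replicate block and leaving out each library.

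The 40 members and the gene lists were chosen with earlier results of these data known. Values per library are given for members that passed in both comparisons or at a log2 fold change of at least 1 in size, plus, in steps with few of these, the member with the smallest adjusted p. Trat1 was added after its values were seen, for its WT 2 library. Of the 71 other cascade genes, up to 3 per direction and comparison are named. A gene that this rule would name is not reported here. EPZ and DMSO libraries pair by animal, from the library names, and after removal of group means the correlation within the pairs was -0.0585 to 0.619, over 0.1 in 2 of 4. No replicate was a copy of another (chi-square of 2.05 to 18.1 per degree of freedom).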

Additional observations from a re-analysis of the deposited data

Results flagged for a closer look

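A test for a library that stands apart from the other 3 of its group was applied to the 80 combinations of a member with the EPZ or DMSO group, and it marked 3, where chance marks about 1 in 20. All 3 were in DMSO 3. Txk had 144.5 CPM there, against 106.4 to 112.4 CPM in the other DMSO libraries. Plcg1 had 400.6 CPM, against 370.1 to 374.9 CPM. Was had 171.3 CPM, against 207.7 to 212.4 CPM. DMSO 3, with 8139437 counts, is the shallowest DMSO library, and it was the highest or lowest of its group for 28 of the 40 members. For DMSO 1, DMSO 2 and DMSO 4 this number was 17, 20 and 15. The part of its depth in these values was not tested.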

How the results depend on the processing

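The number of members that passed stayed within 1.5 times its value under every alternative for KO against WT (27 in all) and, in the direction that fell, for EPZ against DMSO and for the difference of effects. The single member higher in EPZ, Lcp2, did not pass with RLE scaling (0 members higher) or with no filter (0), and leaving out 1 library in turn gave 0 to 0. Members with a difference above 0 numbered 1 to 2 when 1 library was left out, and those with a difference below 0 numbered 9 to 12. No change that passed turned its sign. In EPZ, 15 members passed with DESeq2, 15 with all 14 libraries in 1 fit and 14 with the replicate block (1 higher and 13 lower), against 11 in the main fit. More genes of the whole table passed too. These were 2623 of 12208 with DESeq2, 3198 of 12639 with all 14 libraries and 3163 of 12208 with the block, against 2463 of 12208. A block on the replicate number left KO against WT at 4 higher and 23 lower, with 4266 of all 11570 genes passing, against 4678 in the main fit. For the difference a block gave 15 members and 1348 of all 12639 genes, against 961 genes in the main fit. The blocks changed no other call than Trat1, Sla, Malt1 and Icos, given above. KO and WT libraries share only a number, with correlations of -0.196 to 0.0429. Under every setting tried, 22 of the 27 members that passed in KO against WT, 7 of 11 in EPZ against DMSO and 10 of 14 for the difference passed again. With library totals Fyn had an adjusted p of 0.0501 and Stim1 of 0.0661 in KO against WT, and Cbl had 0.0939 with all 14 libraries in 1 fit. Among all genes, 1637 of 8634 tested passed in EPZ with a filter of 10 CPM, against 2463 of 12208 in the main fit. With counts thinned to equal depth, Stim1 in KO against WT (0.0505) and Nfatc2 in the difference (0.0518) did not pass, and no other member's call changed. In EPZ, Txk also passed with no filter (0.0286), DESeq2 (0.0457) and all 14 libraries in 1 fit (0.0478), Fyn with DESeq2 (0.0213) and all 14 libraries (0.0252), Itpr1 with no filter (0.0191) and DESeq2 (0.0434) and Sla with all 14 libraries (0.0384). Was passed in KO against WT with limma-voom (0.0483). The difference also passed with no filter for Icos (0.0283), Trat1 (0.00386) and Cbl (0.0146) and with DESeq2 for Icos (0.0427).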

Other observations

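Across the 40 members, the log2 fold changes of KO over WT and of EPZ over DMSO had a Pearson r of 0.65 and a Spearman rho of 0.60, against 0.79 and 0.63 over the 11364 genes tested in both comparisons. The genes are not independent replicates, and the comparisons share no library. The change in the KO-labelled libraries was weakly related to the level in WT (r = -0.11, rho = -0.06) and to the length of the gene on the chromosome (r = -0.21, rho = -0.17). The level in WT is itself part of that change. In EPZ the same values were 0.14 and 0.20 for the level in DMSO and -0.08 and -0.07 for the gene length.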
